A study of Homo sapiens with 6 samples.

Results

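Cyclic AMP is made by adenylyl cyclases, broken down by phosphodiesterases and read by protein kinase A (PKA) and a few other sensors, and 41 genes of these families were followed in glioblastoma cells with and without added RBFOX1. The 41 genes are named by their function among the 58051 genes of the count files. That rule holds no measured value, but the genes were chosen with earlier results of these data known. They are 9 adenylyl cyclases, 18 phosphodiesterases, 2 catalytic and 4 regulatory subunits of PKA and 3 PKA inhibitors. The others are the PKA-regulated phosphatase inhibitor PPP1R1B, 2 members of the CREB family and 2 EPAC exchange factors. Cyclases raise cyclic AMP downstream of receptors that signal through the stimulatory G protein Gs, and receptors that signal through Gi lower it. Cyclic AMP releases the catalytic subunits of PKA from their regulatory subunits, and the free kinase phosphorylates many proteins, among them the transcription factor CREB. Phosphodiesterases differ in whether they cleave cyclic AMP, cyclic GMP or both, and in glial and neuronal cells several of them place the breakdown of the messenger at particular sites in the cell.

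The cells were A172, an established human glioblastoma line, made into stable lines with a lentiviral plasmid that expressed either GFP, the control, or RBFOX1, an RNA-binding protein of neurons and muscle that binds the motif TGCATG (in DNA letters). Both groups therefore had the same parental line, culture medium with serum and viral transduction, and each had 3 libraries that the study's methods call biological replicates. Whether these came from separate transductions was not given in the sources used here, so the p-values measure the spread between these libraries. The libraries were stranded and made from rRNA-depleted total RNA, and their counts on genes ranged from 7433414 in RBFOX1 replicate 1 to 23249221 in GFP replicate 1. Within each group the libraries varied beyond counting noise (chi-square over its degrees of freedom, 1.66 to 9.07), and the 2 highest values were those of the deepest library, GFP replicate 1, against the other GFP libraries. Without it, 13 members were again called higher and 10 lower, but ADCY2 and PDE8A lost their calls while PKIG and ADCY1 gained one.

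The construct gene was checked first. RBFOX1 had counts of 4, 0 and 1 in the GFP libraries and of 10276, 16467 and 21451 in the RBFOX1 libraries. These counts do not separate the construct from the cell's own gene, and they match the labels of all 6 libraries. Of 9 neural stem and glial markers, VIM, NES and SOX9 were abundant, GFAP had at most 4 counts in any library and AQP4 had none. The summed level of these 9 markers was 62287 to 67227 normalized counts in GFP and 43233 to 44355 in RBFOX1 libraries, nearly all of it from VIM (normalized counts are counts scaled to a common library size, on which 1 count was worth 0.607 to 1.81). Of the 7 tested, VIM, SOX9 and OLIG2 were lower, and SOX2 (5.61-fold) and NES (1.51-fold) were higher in RBFOX1 cells. All 12 genes of a proliferation list passed the test, 11 higher and PCNA lower in RBFOX1 cells, with a summed level of 10869 to 11064 against 21984 to 23475 normalized counts. Of all genes tested 46.7% passed, and 63.8% of those with a mean of 50 or more normalized counts. The 3 endothelial markers were higher at low level, with sums of 10.3 to 12.8 against 95.9 to 109 normalized counts. Neuronal markers summed to at most 180 normalized counts in GFP and to 356 to 461 in RBFOX1 libraries, with MAP2 higher. Immune markers summed to 15.2 to 35.2 against 54.4 to 72.2, with PTPRC higher and CD3E without a count, and epithelial markers to 6242 to 6516 against 24562 to 25532, nearly all of it from KRT18. The part of these shifts in the results that follow was not tested, and in RNA from whole cultures fewer cells of a kind and less RNA per cell cannot be told apart.

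Of the 41 genes, 37 reached 10 counts over the 6 libraries together and were tested, 13 were higher and 10 lower in RBFOX1 than in GFP cells, and 14 did not pass (edgeR's quasi-likelihood test, adjusted p under 0.05, Benjamini-Hochberg over the 20536 genes tested). That is 62.2% of the members tested, beside 46.7% of all genes tested. At a mean level of 50 normalized counts or more, 17 of 24 members were called, 70.8%, beside 63.8% of all genes at that level. The share of members called was thus near the background of genes at their level. Of all genes tested, 23.7% were higher and 22.9% lower. The median log2 fold change was 0.14 over the members and 0.01 over all genes, and the median of its absolute size was 0.50 and 0.38. Past the threshold with a change of 1 or more on the log2 scale were 6 of the 37 members upward and 2 downward. The shares of all genes tested were 8.23% and 4.48%. At a mean of 50 or more normalized counts, only 2 members were upward and 1 downward. The other upward members, PDE1A, PDE4B, PDE4C and PKIB, had lower means. The libraries of the groups did not overlap for 25 of the 37 members, beside 53.4% of all genes tested. With 3 libraries against 3, an exact permutation test of a single value cannot go below p = 0.1. The 4 members that were not tested were ADCY4, ADCY8, PDE3A and PDE9A, and PDE9A had no count in any library.

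**Figure D1:**
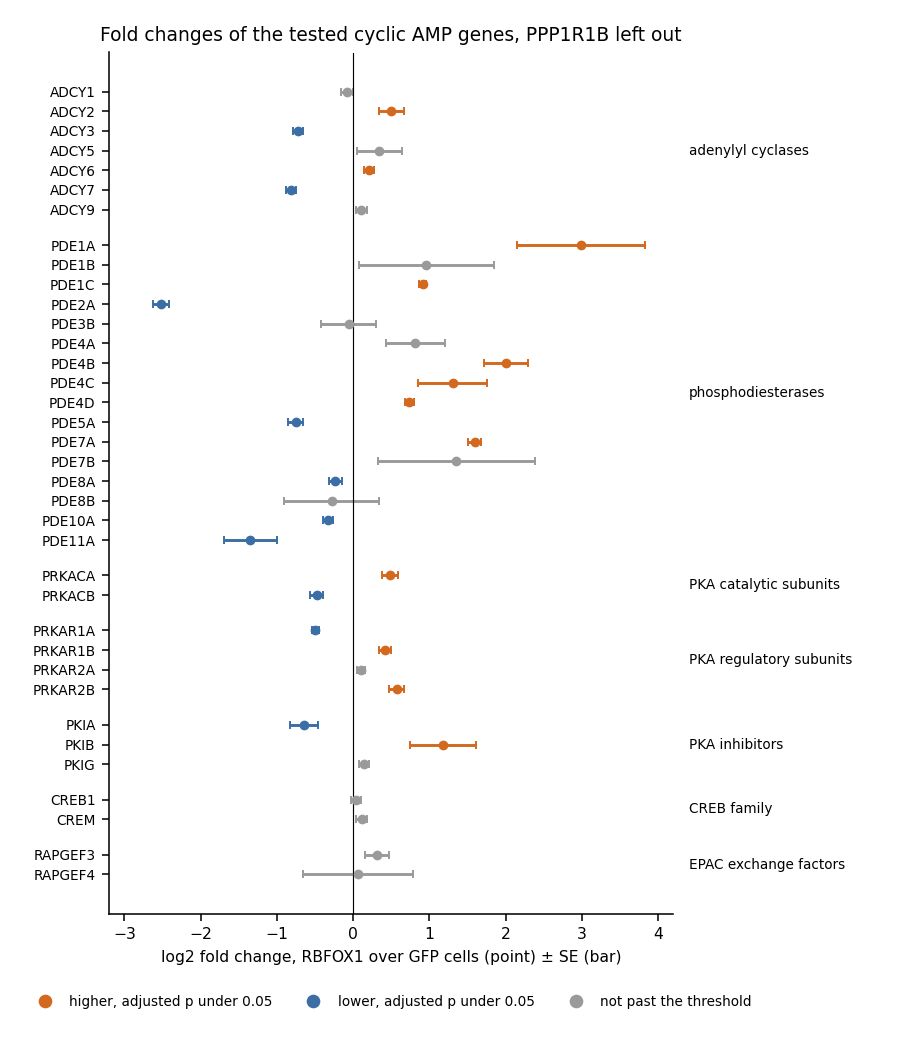
Log2 fold change of RBFOX1 over GFP cells for the tested members other than PPP1R1B, as points with bars of 1 standard error on each side, ordered by family. PDE2A lay farthest to the left at -2.52, PDE1A, PDE4B and PDE7A lay to the right at 2.99, 2.01 and 1.60, and the CREB and EPAC genes lay between 0.04 and 0.31.

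The phosphodiesterases held the largest changes next to PPP1R1B. PDE2A fell while PDE7A, PDE4B, PDE1C and PDE4D rose, so genes of this family moved in both directions. Each PKA subunit family likewise had a member that rose and a member that fell, and among the cyclases ADCY3 and ADCY7 fell while ADCY2 and ADCY6 rose by less. CREB1, CREM and the EPAC genes RAPGEF3 and RAPGEF4 did not pass the test.

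RBFOX1 binds TGCATG, which is a sequence that the members' own transcripts can carry, so the motif was searched in the 3′ UTR of the canonical transcript of each gene (GENCODE release 44, GRCh38, sense strand only). By gene, 19 of the 41 members held at least 1 TGCATG, 39 sites in all. The motif was present in 8 of the 13 higher members, 5 of the 10 lower members and 5 of the 14 that did not pass. Its density was 0.324 sites per kb of 3′ UTR over the tested members and 0.322 over 14052 tested protein-coding genes, of which 36.5% held one. By call, it was 0.453 in the higher members, 0.317 in the lower members and 0.238 in those that did not pass. These differences between small groups of genes were not tested. Members had longer 3′ UTRs than those genes, with a median of 2397 against 1298 nucleotides, so each member was also set beside genes whose 3′ UTR length was within 20% of its own. The site nearest to the stop codon is shown for 11 of the 13 called members that hold the motif (all but PDE7A and PKIA), as the reference sequence 5′ to 3′ with 12 bases on each side. Capitals mark TGCATG, and the coordinates are those of the capitals in GRCh38.
ADCY2, chr5:7827201-7827206, plus strand, higher: attatcttctggTGCATGttcttttctgga
ADCY6, chr12:48767538-48767543, minus strand, higher: tgtaactgtgtgTGCATGttggtctttgtg
ADCY7, chr16:50315615-50315620, plus strand, lower: tgcagatggctgTGCATGttggcttctttg
PDE1A, chr2:182142540-182142545, minus strand, higher: tcttattttaaaTGCATGggaacagaatga
PDE4B, chr1:66374411-66374416, plus strand, higher: atggcacaaatgTGCATGaccaatgtatgt
PDE4D, chr5:58974602-58974607, minus strand, higher: ttgtttccaaagTGCATGtcacatgccaca
PDE5A, chr4:119496709-119496714, minus strand, lower: ggtgtatacttaTGCATGcatacataaatc
PDE11A, chr2:177626107-177626112, minus strand, lower: tattggcttcacTGCATGgttgccaatagc
PRKACB, chr1:84237085-84237090, plus strand, lower: atcaagtgtttcTGCATGgtaatgtcatgt
PRKAR1B, chr7:549222-549227, minus strand, higher: tgctctgaatacTGCATGaagcattaaacg
PKIB, chr6:122725228-122725233, plus strand, higher: gtgctgaatttcTGCATGttgaaagactta

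Sites lay at very different distances from the stop codon. In PKIB and PDE4D the first TGCATG began 33 and 57 nucleotides past it, in ADCY7 110 and in PDE11A 3295 nucleotides past it. ADCY1, which did not pass the test, held 6 sites, the most of any member. PDE7A held 4, and ADCY7, PDE4D and PDE3A, which was not tested, held 3 each. The 22 members with none included PDE1C, PDE2A, PDE10A, PRKAR1A, CREB1 and PPP1R1B. Of genes with a 3′ UTR of similar length, 75.1% held a TGCATG for PDE7A, 79.4% for PDE4D and 56.3% for ADCY7. The same share was 49.9% for PDE1C and 29.6% for PDE2A. It was 91.1% for ADCY1, and 90.9% and 80.4% for CREB1 and PDE10A, which held none. The 2 sites of PKIB stood in a 3′ UTR of 1178 nucleotides, where 29.2% of similar genes held one. Both risen and fallen genes carried the motif, and its presence is a description of the letters in these windows.

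Adenylyl cyclases make cyclic AMP from ATP, and the membrane-bound isoforms differ in their response to calcium and to G protein subunits. Of 9 isoforms, 7 were tested, 2 were higher and 2 lower. ADCY7 (ENSG00000121281, GRCh38 chr16:50246137-50318135), an isoform stimulated by G protein beta-gamma subunits together with Gs, had 671, 691 and 675 normalized counts in GFP and 386, 384 and 385 in RBFOX1 libraries. Every RBFOX1 library was far below every GFP library. The fall was 1.76-fold, a log2 fold change of -0.82 ± 0.066 (SE, n = 3 against 3, adjusted p = 2.67e-09). ADCY3, a calcium- and calmodulin-stimulated isoform also known from olfactory neurons and primary cilia, had 803, 798 and 848 normalized counts in GFP and 542, 457 and 493 in RBFOX1 libraries. The groups did not overlap, and the fall was 1.64-fold (log2 -0.72 ± 0.0699, adjusted p = 3.71e-08).

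The 2 cyclases that rose did so by less. ADCY2, another isoform stimulated by beta-gamma subunits, had 54.6, 75.9 and 52.7 normalized counts in GFP and 76.2, 85.5 and 89.5 in RBFOX1 libraries. GFP replicate 2 nearly reached the lowest RBFOX1 library, and the rise was 0.50 ± 0.158 on the log2 scale (adjusted p = 0.013). The call for ADCY2 was lost without GFP replicate 1 (adjusted p = 0.0564), GFP replicate 3 (0.0504) or RBFOX1 replicate 3 (0.071), and with DESeq2 (0.0982). ADCY6, which calcium inhibits, had a mean of 591 ± 42.8 (SD, n = 3) in GFP and 678 ± 7.89 normalized counts in RBFOX1 libraries, a log2 fold change of 0.21 ± 0.0677 (adjusted p = 0.0172). Its call was lost without RBFOX1 replicate 2 (adjusted p = 0.0511) and with counts thinned to the smallest library (0.177). ADCY9, ADCY1 and ADCY5 did not pass, with log2 fold changes of 0.10, -0.08 and 0.34 and 95% intervals of -0.04 to 0.25, -0.24 to 0.08 and -0.23 to 0.91. ADCY1 did pass without GFP replicate 1 (-0.19, adjusted p = 0.0248). ADCY4 and ADCY8 had at most 1 count in any library.

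Counts per kb of exon allow levels to be compared between isoforms. In GFP cells ADCY3 led the family with 34.3% ± 1.40 (SD, n = 3) of the summed cyclase counts per kb, followed by ADCY7 with 21.5% ± 0.552 and ADCY6 with 19.0% ± 0.914. In RBFOX1 cells ADCY6 had 26.9% ± 1.22 and ADCY3 25.8% ± 1.35, and the libraries of these 2 genes overlapped. ADCY7 then stood at 15.1% ± 0.470, below ADCY9 at 16.8% ± 0.942. ADCY3 thus stood clear of the others in GFP cells. With the length of the canonical transcript, a choice made after seeing the data, ADCY6 led in RBFOX1 cells with 28.0% against 25.2% for ADCY3, with no overlap, so whether the 2 genes were apart depended on the length used. Summed over the family, cyclase counts per kb were 368 ± 12.8 in GFP and 298 ± 10.2 in RBFOX1 cells, 1.24-fold lower in RBFOX1 cells with no overlap between the libraries.

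Phosphodiesterases end the signal. Of 18 genes, 16 were tested, 6 were higher and 5 lower. PDE2A (ENSG00000186642, GRCh38 chr11:72576141-72674591), which cleaves both cyclic nucleotides and is stimulated by cyclic GMP, had 373, 369 and 399 normalized counts in GFP and 67.1, 62.2 and 69.4 in RBFOX1 libraries. Every GFP library stood far above every RBFOX1 library. This was the largest fall among the members, 5.75-fold (log2 -2.52 ± 0.103, adjusted p = 8.59e-14), and it was called in all 14 alternative fits.

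PDE1C (ENSG00000154678, GRCh38 chr7:31751179-32428131), which calcium and calmodulin stimulate and which cleaves both nucleotides, was the most abundant phosphodiesterase. It had 2612, 2703 and 2803 normalized counts in GFP and 5296, 4952 and 5023 in RBFOX1 libraries. The rise was 1.88-fold (log2 0.91 ± 0.0489, adjusted p = 5.06e-12), and the groups were far apart. PDE1A, of the same subfamily, was near the detection limit, with counts of 1, 0 and 1 in the GFP libraries and of 1, 7 and 6 in the RBFOX1 libraries. RBFOX1 replicate 1 had no more counts than the GFP libraries. Its ratio of summed counts was 9.49 with an exact counting interval of 2.18 to 86.0, and its call (log2 2.99 ± 0.839, adjusted p = 0.00595) was lost with DESeq2 (adjusted p = 0.0711). Without RBFOX1 replicate 2, or with edgeR's own filter on low counts, PDE1A had too few counts to be tested. PDE1B had at most 2 counts in any library and did not pass.

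The phosphodiesterases that cleave only cyclic AMP are the PDE4, PDE7 and PDE8 subfamilies, and of their 8 genes 4 were higher, 1 lower and 3 did not pass. PDE7A (ENSG00000205268) had 179, 190 and 157 normalized counts in GFP and 501, 521 and 563 in RBFOX1 libraries. The groups did not overlap, and the rise was 3.01-fold (log2 1.60 ± 0.0866, adjusted p = 6.02e-12). PDE4D (ENSG00000113448, GRCh38 chr5:58969038-60522120), which anchoring proteins hold near PKA, had 675, 607 and 686 normalized counts in GFP and 1099, 1131 and 1062 in RBFOX1 libraries. Every RBFOX1 library was above every GFP library, and the rise was 1.67-fold (log2 0.74 ± 0.0625, adjusted p = 5.39e-09).

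PDE4B, of the same subfamily as PDE4D, was expressed at low level. It had 7.89, 8.17 and 13.7 normalized counts in GFP and 52.6, 35.5 and 33.8 in RBFOX1 libraries. The groups did not overlap despite the low counts, and the rise was 4.10-fold (log2 2.01 ± 0.288, adjusted p = 7.6e-06). PDE4C had counts of 8, 2 and 4 in the GFP libraries and of 4, 11 and 11 in the RBFOX1 libraries, and 73.8% of its exon bases are shared on the same strand with another annotated gene, so its value is uncertain. Its call (log2 1.31 ± 0.452, adjusted p = 0.0224) was lost without GFP replicate 2 (adjusted p = 0.0629), RBFOX1 replicate 2 (0.0971) or RBFOX1 replicate 3 (0.0601), and with DESeq2 (0.161). PDE4A, with means of 7.63 ± 3.43 and 12.9 ± 0.757 normalized counts, did not pass (log2 0.82, 95% interval 0.06 to 1.57, adjusted p = 0.091), but did without GFP replicate 3 (adjusted p = 0.0271).

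PDE8A had 455, 378 and 447 normalized counts in GFP and 337, 359 and 388 in RBFOX1 libraries. The groups overlapped, and the fall was 0.24 on the log2 scale (adjusted p = 0.0263). The call was lost without GFP replicate 1 (adjusted p = 0.112), GFP replicate 3 (0.0891), RBFOX1 replicate 1 (0.117) or RBFOX1 replicate 2 (0.0893). It was also lost with DESeq2. PDE7B had counts of 2, 0 and 2 in the GFP libraries and of 1, 7 and 0 in the RBFOX1 libraries, a ratio of 2.71 with an exact counting interval of 0.726 to 12.3, and did not pass. PDE8B had at most 8 counts in any library and did not pass. It shares 51.6% of its exon bases on the same strand with another gene.

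PDE5A, which cleaves only cyclic GMP and is the target of drugs that relax blood vessels, had 241, 235 and 230 normalized counts in GFP and 132, 133 and 150 in RBFOX1 libraries. The groups did not overlap, and the fall was 1.70-fold (log2 -0.75 ± 0.0967, adjusted p = 1.78e-06). PDE10A, an enzyme for both nucleotides best known from the striatum, fell from a mean of 721 ± 10.3 to 574 ± 24.9 normalized counts (log2 -0.33 ± 0.0637, adjusted p = 0.000203). PDE11A, also for both nucleotides, had counts of 28, 18 and 17 in the GFP libraries and of 6 in each RBFOX1 library. On the normalized scale its groups did not overlap, and the fall was 2.43-fold (log2 -1.35 ± 0.348, adjusted p = 0.00308). PDE3B, which cyclic GMP inhibits, had a mean of 10.4 normalized counts in both groups, and PDE3A had at most 1 count in any library.

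**Figure D2:**
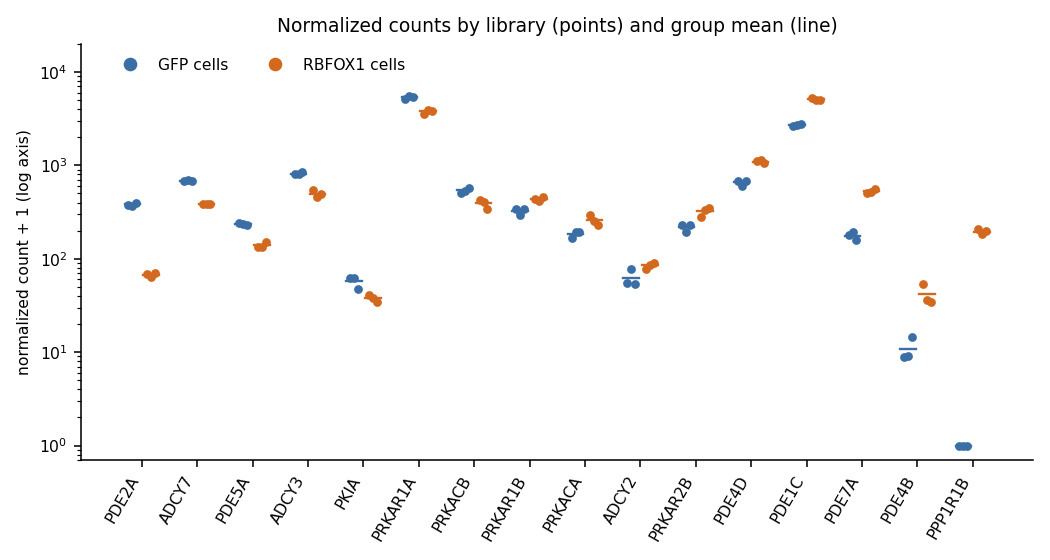
Normalized counts plus 1 (log axis) in each of the 6 libraries, for members past the threshold that moved by 0.4 or more on the log2 scale and had a mean of at least 20 normalized counts; points are libraries and lines are group means. PDE2A stood at 369 to 399 in GFP and 62.2 to 69.4 in RBFOX1 libraries, and PPP1R1B had no count in GFP libraries and stood at 181 to 205 in RBFOX1 libraries.

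Per kb of exon, the phosphodiesterases together were more abundant in RBFOX1 cells. Their summed level was 404 ± 11.98 normalized counts per kb in GFP and 573 ± 9.34 in RBFOX1 cells, 1.42-fold higher with no overlap between libraries. PDE1C made up 47.4% ± 1.29 of this sum in GFP and 62.9% ± 1.26 in RBFOX1 cells. PDE1C alone rose from 192 to 360 normalized counts per kb, about as much as the whole sum. The rise of the sum was thus not shared across the family, whose other genes moved in both directions. PDE2A, which shared the next places in GFP cells with PDE8A at 13.1% ± 0.195 and 13.2% ± 1.08, made up 1.61% ± 0.0776 in RBFOX1 cells. The share of PDE7A went from 4.10% ± 0.513 to 8.70% ± 0.594, and that of PDE4D from 9.93% ± 0.439 to 11.7% ± 0.482.

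By substrate, the cyclic AMP-specific genes together rose from 114 ± 7.28 to 171 ± 4.41 normalized counts per kb, while their share of the family was 28.1% ± 1.37 in GFP and 29.9% ± 1.205 in RBFOX1 cells, with overlapping libraries. The cyclic GMP-specific share, all from PDE5A, was 6.07% ± 0.288 and 2.52% ± 0.187. The calcium- and calmodulin-stimulated subfamily had 47.4% ± 1.26 of the family in GFP and 63.1% ± 1.21 in RBFOX1 cells. With the length of the canonical transcript in place of all exons, a choice made after seeing the data, the calcium- and calmodulin-stimulated shares were 59.7% and 73.9% and the cyclic GMP-specific shares 3.24% and 1.25%. The cyclic AMP-specific shares were then 20.8% and 19.9%, so the direction of that share turned with the length used. The shares of PDE7A were 2.42% and 4.79%, and those of PDE2A 8.51% and 0.974%. The lead of PDE1C in both groups held with either length, but with the canonical transcript's length PDE8A stood above PDE2A in GFP cells, at 10.1% with no overlap. By counts not divided by length, PDE10A at 13.5% and PDE4D at 12.2% came next after PDE1C in GFP cells. The order below PDE1C thus depended on the length used.

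**Figure D3:**
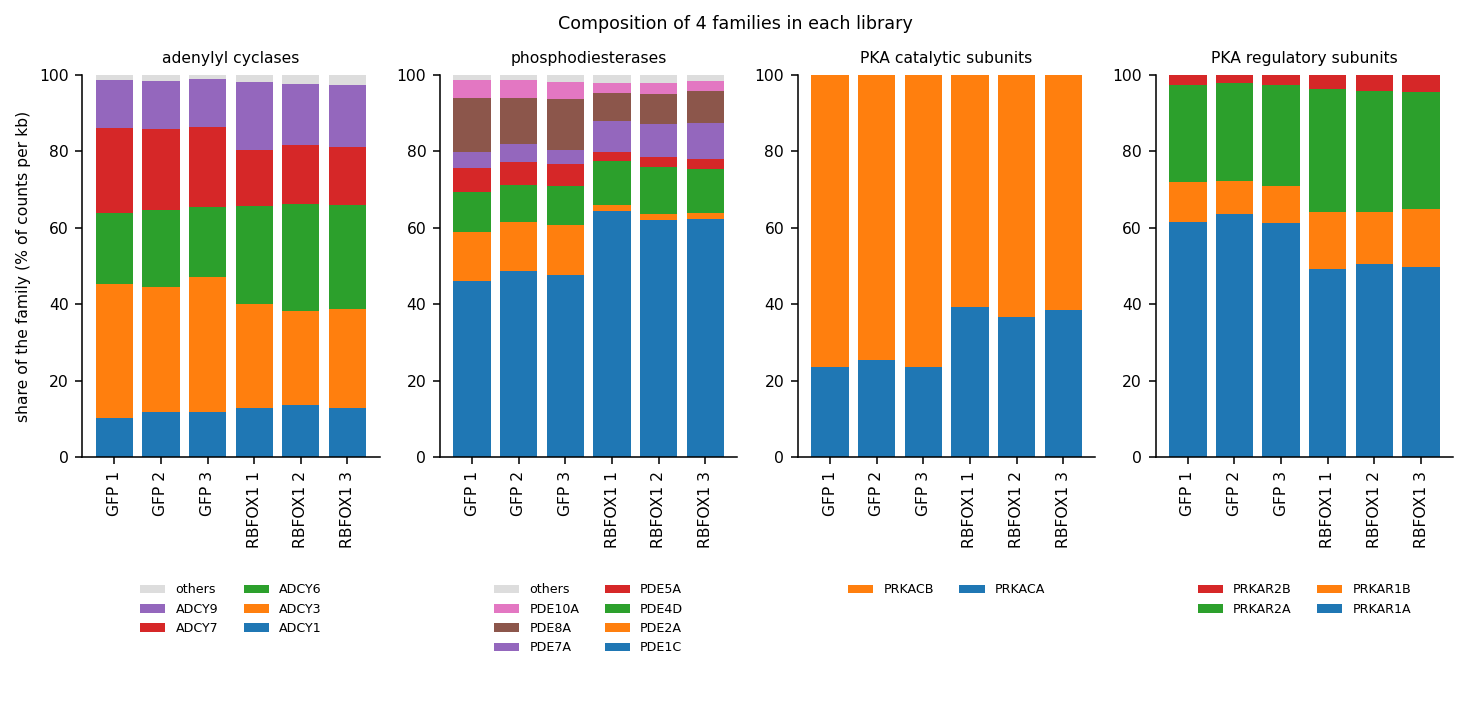
Share of each gene in the summed normalized counts per kb of exon of its family, in percent, for each of the 6 libraries. PDE1C filled 46.0 to 48.6% of the phosphodiesterase bar in GFP and 62.1 to 64.3% in RBFOX1 libraries, and PRKACA filled 23.5 to 25.3% and 36.8 to 39.2% of the catalytic subunit bar.

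PKA is a complex of regulatory and catalytic subunits. Both catalytic genes passed the test, in opposite directions. PRKACA, the more widely expressed isoform, had 167, 193 and 192 normalized counts in GFP and 296, 251 and 227 in RBFOX1 libraries. All RBFOX1 libraries were above all GFP libraries, with a log2 fold change of 0.48 ± 0.105 (adjusted p = 0.000795). PRKACB, the isoform rich in brain, had 506, 530 and 576 normalized counts in GFP and 428, 403 and 338 in RBFOX1 libraries. Here all RBFOX1 libraries were below, with a log2 fold change of -0.48 ± 0.0855 (adjusted p = 0.000101). The share of PRKACA in the catalytic counts per kb was 24.2% ± 0.993 in GFP and 38.2% ± 1.27 in RBFOX1 cells. With the canonical transcript's length the shares were 36.2% and 52.4%, so which catalytic gene led in RBFOX1 cells depended on the length used, while the direction of the shift did not. The summed catalytic level per kb, 104 ± 6.80 in GFP and 92.1 ± 11.3 in RBFOX1 cells, overlapped between the groups.

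Regulatory subunits fall into type I, which is mostly soluble, and type II, which anchoring proteins tether. PRKAR1A (ENSG00000108946, GRCh38 chr17:68511780-68551319), the leading type I gene, had 5111, 5539 and 5381 normalized counts in GFP and 3580, 3947 and 3823 in RBFOX1 libraries. The groups were well apart, and the fall was 1.41-fold (log2 -0.50 ± 0.0509, adjusted p = 8.75e-08). PRKAR2B, a type II gene of brain and fat, had 228, 192 and 231 normalized counts in GFP and 276, 334 and 351 in RBFOX1 libraries. The groups did not overlap, and the rise was 1.48-fold (log2 0.57 ± 0.099, adjusted p = 6.88e-05). PRKAR1B, the neuronal type I gene, rose from a mean of 326 ± 26.4 to 438 ± 21.6 normalized counts (log2 0.42 ± 0.0798, adjusted p = 0.000189). PRKAR2A did not pass (log2 0.11, 95% interval 0.00 to 0.21, adjusted p = 0.119), although its lowest RBFOX1 library lay above its highest GFP library. Type I made up 71.7% ± 0.588 of the regulatory counts per kb in GFP and 64.4% ± 0.513 in RBFOX1 cells, and the summed level of the family was 683 ± 21.2 and 603 ± 21.1 normalized counts per kb.

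The PKA inhibitors PKIA, PKIB and PKIG encode small proteins that block the free catalytic subunit. PKIG, by far the leading one per kb with 96.0% of the family in GFP and 97.0% in RBFOX1 cells, had 942, 900 and 946 normalized counts in GFP and 961, 1096 and 1014 in RBFOX1 libraries. Its groups did not overlap, but it did not pass (log2 0.14, 95% interval 0.02 to 0.26, adjusted p = 0.0605), although it did without GFP replicate 1 (adjusted p = 0.0272) or RBFOX1 replicate 1 (0.0199). PKIA had 61.3, 60.7 and 46.4 normalized counts in GFP and 39.9, 36.6 and 33.8 in RBFOX1 libraries. All RBFOX1 libraries were below (log2 -0.65 ± 0.184, adjusted p = 0.00658), and the call was lost with DESeq2 (adjusted p = 0.081). PKIB had counts of 11, 5 and 3 in the GFP libraries and of 5, 17 and 10 in the RBFOX1 libraries. Its call (log2 1.18 ± 0.437, adjusted p = 0.0322) was lost without GFP replicate 3 (adjusted p = 0.0954) or RBFOX1 replicate 2 (0.271). It was also lost with DESeq2, and the lowest log2 fold change of PKIB over the alternative fits was 0.44.

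PPP1R1B (ENSG00000131771, GRCh38 chr17:39626740-39636626, plus strand) encodes DARPP-32, which becomes an inhibitor of protein phosphatase 1 once PKA has phosphorylated it and which is best known from dopamine-receptive neurons of the striatum. It had no count in any GFP library and 113, 163 and 216 counts in the RBFOX1 libraries. On the normalized scale these were 205, 181 and 197, so all RBFOX1 libraries were alike while all GFP libraries were at 0. Against a limit of 3 counts in each GFP library, its level was at least 68.7-fold higher in RBFOX1 cells (adjusted p = 8.59e-14). Its neighbours on the chromosome had much smaller values. The nearby genes STARD3, TCAP and PGAP3 had log2 fold changes of 0.05, 0.10 and 0.03 and did not pass, ERBB2 was higher by 0.19 (adjusted p = 0.00692), and NEUROD2 and PNMT had too few counts to be tested. Its canonical 3′ UTR held no TGCATG, and 20.5% of genes with a 3′ UTR of similar length held one.

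None of the 2 CREB-family and 2 EPAC genes passed the test. CREB1, the factor that PKA phosphorylates, had 813, 938 and 964 normalized counts in GFP and 898, 940 and 933 in RBFOX1 libraries. The groups overlapped (log2 0.04, 95% interval -0.09 to 0.17, adjusted p = 0.666). CREM, whose locus makes both activators and repressors, led CREB1 per kb. It had 508, 464 and 466 normalized counts in GFP and 486, 547 and 519 in RBFOX1 libraries. Its means were 479 ± 25.1 and 517 ± 30.6 (log2 0.11, 95% interval -0.03 to 0.25, adjusted p = 0.23). RAPGEF3, an EPAC protein that activates Rap in response to cyclic AMP, had 68.0, 63.1 and 54.8 normalized counts in GFP and 96.1, 77.7 and 66.7 in RBFOX1 libraries, and these groups overlapped by the last value (log2 0.31, adjusted p = 0.126). RAPGEF4 had at most 5 counts in any library.

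CREB-family proteins bind the cyclic AMP response element TGACGTCA, a palindrome that reads alike on both strands. It was searched in RefSeq promoters of GRCh38.p14 (250 bases before to 50 after each annotated start), where 33 of the 41 members had an entry. It was found for 4 members, and 2.25% of the 27305 genes in the promoter table held it in at least 1 promoter. Members had 107 promoters in all, and a gene with more promoters has more chances to hold it. By promoter, 6 of these 107 held it, 5.61%, beside 1.85% of all 35116. In PRKAR1A and CREM the same element was counted in overlapping promoters. The shorter TGACG, on either strand, was in 22.4% of members' promoters and 24.6% of all. These differences were not tested. The TGACGTCA matches are shown because these are the letters that the pathway's own factors bind, with the element in capitals and its GRCh38.p14 coordinates.
PRKAR1A, chr17:68512381-68512388, plus strand, lower: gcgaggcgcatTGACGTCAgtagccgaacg
CREM, chr10:35195852-35195859, plus strand, not past the threshold: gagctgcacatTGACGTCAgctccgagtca
PDE4A, chr19:10416770-10416777, plus strand, not past the threshold: cgtcagtccgcTGACGTCAcgccccaggag
PDE7B, chr6:135851546-135851553, plus strand, not past the threshold: actaaacccttTGACGTCActcttgaaatg

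Of these 4 genes, PRKAR1A fell and the others did not pass the test. In PRKAR1A and CREM the element lay 2 bases past 1 annotated start and 49 or 50 bases before another. A match to the letters says nothing on whether a factor was bound in these cells.

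Around the members, 135 further genes of cyclic AMP and cyclic GMP signalling were examined in 9 lists, of which 90 were tested, 37 were higher and 20 lower. That is 63.3% of those tested, beside 46.7% of all genes tested and 63.8% of all genes with a mean of 50 or more normalized counts. The share of the further genes at that level was not counted, so an excess over the background of their level is not shown. Of 34 Gs-coupled receptors, 17 were tested, 7 were higher and 1 lower. CALCRL, the receptor for calcitonin gene-related peptide and adrenomedullin, had 31.6, 37.4 and 28.4 normalized counts in GFP and 145, 210 and 168 in RBFOX1 libraries (log2 2.45 ± 0.162, adjusted p = 1.25e-10). Of 18 Gi-coupled receptors, 6 were tested and 4 were higher. SSTR2, a somatostatin receptor, had 304, 287 and 319 normalized counts in GFP and 3490, 3783 and 3718 in RBFOX1 libraries, 12.1-fold more (log2 3.59 ± 0.0609, adjusted p = 1.79e-19). HTR1D, a serotonin receptor, was 3.38-fold higher (log2 1.78 ± 0.134, adjusted p = 8.93e-10).

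The lists that follow are short, and of all genes tested 23.7% were higher and 22.9% lower. At a mean of 50 or more normalized counts, 63.8% of all genes were called. Among 6 tested alpha subunits of Gs and Gi, 2 were higher and 3 lower. Of 13 tested A-kinase anchoring proteins, 3 were higher, 2 lower and 8 did not pass. AKAP5, an anchor of PKA at synapses, had 34.0, 33.9 and 36.9 normalized counts in GFP and 149, 175 and 186 in RBFOX1 libraries (log2 2.31 ± 0.141, adjusted p = 3.63e-11). Of 6 CREB partners 4 were higher and 1 lower. Of 12 tested genes known as CREB targets, 6 were higher, 3 lower and 3 did not pass, so they did not move one way. DUSP1, a MAP kinase phosphatase, had means of 257 ± 21.7 and 671 ± 13.5 normalized counts (log2 1.37 ± 0.0761, adjusted p = 8.49e-12).

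Of 10 tested partners and relatives of DARPP-32, 7 were higher and 1 lower. Beside these counts, 23.7% of all genes tested were higher and 22.9% lower, and 63.8% of genes with a mean of 50 or more normalized counts were called. PPP3R1, the regulatory subunit of calcineurin, which dephosphorylates DARPP-32, had means of 433 ± 30.8 and 943 ± 2.81 normalized counts (log2 1.13 ± 0.0669, adjusted p = 2.36e-11). CDK5R1, the activator of CDK5, had means of 113 ± 2.60 and 237 ± 13.1 (log2 1.07 ± 0.0991, adjusted p = 1.89e-08). Of 10 tested cyclic GMP genes, 3 were higher and 4 lower. GUCY1A2, a subunit of the nitric oxide-sensitive guanylyl cyclase, had 15.8, 15.2 and 13.7 normalized counts in GFP and 156, 203 and 156 in RBFOX1 libraries (log2 3.51 ± 0.178, adjusted p = 2.24e-12). Of 10 further cyclic AMP genes tested, 1 was higher and 5 lower. POPDC3, a membrane protein of the cyclic AMP-binding Popeye family, had 660, 587 and 579 normalized counts in GFP and 116, 98.8 and 110 in RBFOX1 libraries (log2 -2.51 ± 0.0943, adjusted p = 2.47e-14).

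**Figure D4:**
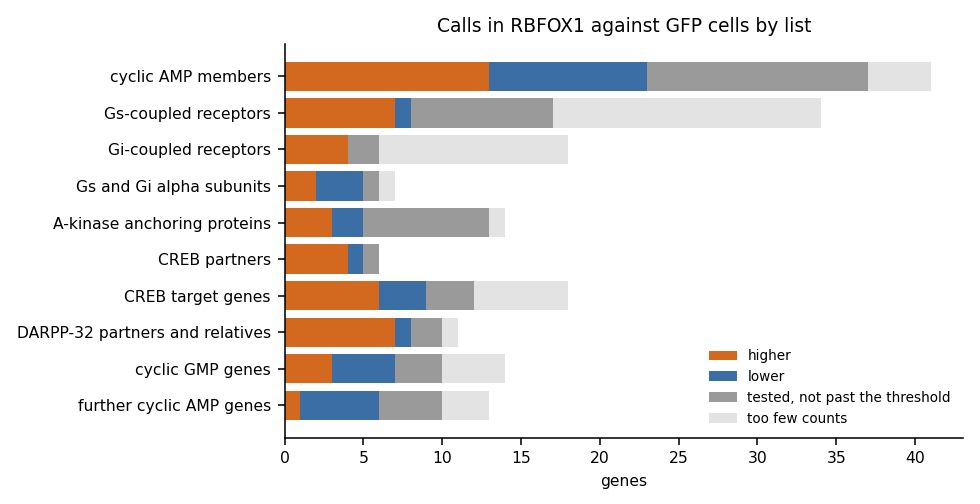
Number of genes in the members and in 9 further lists that were higher, lower or not past the threshold in RBFOX1 against GFP cells, or had too few counts to be tested. Of the 37 tested members 13 were higher and 10 lower, and the Gi-coupled receptors had 4 higher and none lower among 6 tested. Of all genes tested, 23.7% were higher and 22.9% lower.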

How the data were processed

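Libraries of total RNA depleted of rRNA from A172 cells, 3 with GFP and 3 with RBFOX1, were compared. Reads had been aligned by the authors with HISAT2 (genome build GRCh38) and assigned to genes of Ensembl with HTSeq-count, reverse-stranded and intersection-strict. The authors deposited raw counts per gene, and tool versions were not given in the sources used here. The deposited table of the authors' own DESeq2 comparison, which holds the mean normalized signal, log2 fold change and its error, a score (the Wald statistic), p-value and adjusted p-value of each gene, was not used. The 5 summary lines of each count file, 38.1 to 48.0% of read pairs, stayed out of library sizes and tests.

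TMM factors and the two-sided quasi-likelihood test of edgeR (version 4.0.16 in R 4.3.3) were used, in a model of condition alone, on the 20536 genes that reached 10 counts over all libraries. Adjustment was over all of these, and calls were made at an adjusted p under 0.05. Intervals of log2 fold changes are nominal 95% intervals, taken from the SE with the normal distribution. They leave out the limited degrees of freedom of the quasi-likelihood test, so they are narrower than that test implies. Where a group had no count, folds are bounds against 3 counts per library, and such bounds and counting intervals cover counting error only. Symbols, coordinates, exon lengths and 3′ UTRs came from GENCODE 44, a later annotation than the one used for counting, in which 98.1% of the identifiers matched. Promoters came from RefSeq. The script was tested on simulated data. DESeq2 1.42.0, limma-voom (limma 3.58.1), other scalings, filters and thresholds, thinned counts, a replicate block and the omission of each replicate were run as alternatives.

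The members and the gene lists were chosen with earlier results of these data known. Values in every library are given for members past the threshold that moved by 0.5 or more on the log2 scale, for members with at most 3 counts in every library of 1 group and more in the other, and for the leading member of each family per kb. Of the other lists, up to 4 genes per list past the threshold that moved by 1 or more on the log2 scale and had a mean of 50 or more normalized counts were named. PRKACA was given by library after its values were seen. PDE8A and CREB1 were also given by library outside these rules.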

Additional observations from a re-analysis of the deposited data

How the results depend on the processing

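Of the 23 calls among the members, 16 were made in the same direction in all 14 alternative fits, and ADCY2, ADCY6, PDE1A, PDE4C, PDE8A, PKIA and PKIB were each lost in at least 1. With a log2 fold change of at least 1 required as well, 6 members were higher and 2 lower, and 18 further pathway genes were higher and 4 lower. Leaving out each replicate in turn gave 9 to 14 members higher and 9 to 10 lower, 35 to 39 further genes higher and 15 to 19 lower, and a median log2 fold change of the members of 0.12 to 0.19. Without RBFOX1 replicate 2, PDE1A had too few counts to be tested, and with edgeR's own filter on low counts PDE1A, PDE4C and PKIB had. The other calls that changed without 1 library are named in the report. DESeq2 called 9 members higher and 8 lower. Some members that did not pass changed sign: with 1 library left out PDE3B ranged from -0.23 to 0.050 on the log2 scale, PDE8B from -1.19 to 0.14, CREB1 from -0.033 to 0.091 and RAPGEF4 from -0.86 to 0.45, and RAPGEF4 stood at -0.065 with DESeq2. The cause of these changes was not tested.

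Replicate numbers are shared by the groups in the labels, but same-numbered libraries did not deviate together (correlations of -0.16, 0.04 and -0.05 across genes), so the numbers were not taken as pairs, and not every library correlated best with its own number. With the replicate block 12 members were higher and 10 lower, PDE4C did not pass (adjusted p = 0.0523) and RAPGEF4 stood at -0.15.

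Counts not divided by length gave ADCY3 25.2% of its family in GFP and 18.1% in RBFOX1 cells, PDE1C 50.5% in GFP cells, PDE2A 7.10% and 0.833%, PRKACA 25.5% and 39.8%, and PRKAR1A 72.0% and 61.1%, with the same directions as per kb. Depth limits the genes with few counts: in the shallowest library 3 counts were worth 5.44 normalized counts. Of the 13 tested members with a mean under 50, 6 were called, beside 46.7% of all genes tested at any level. The share of all genes under that mean was not counted.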

Other observations

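Further genes around cyclic AMP, chosen after their values were seen, also differed between the groups. OPRD1, the delta opioid receptor, had no count in GFP libraries and stood at 23.6, 24.4 and 25.6 normalized counts in RBFOX1 libraries, at least 8.67-fold higher. The prostacyclin receptor gene PTGIR had 24.3, 15.2 and 13.7 normalized counts in GFP and 68.9, 81.0 and 91.3 in RBFOX1 libraries (log2 2.11 ± 0.21, adjusted p = 5.61e-08). HTR7, a Gs-coupled serotonin receptor, moved the other way, with 68.6, 58.4 and 64.3 against 10.9, 21.1 and 22.8 normalized counts (log2 -1.72 ± 0.214, adjusted p = 1.24e-06).

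Within the Gi alpha subunits the genes diverged. GNAI1 rose from a mean of 570 ± 18.7 to 1040 ± 32.5 normalized counts and GNAI3 from 2470 ± 94.9 to 3926 ± 222, while GNAI2 fell from 5304 ± 226 to 3914 ± 96.8. Among CREB targets, PCK1 had no count in GFP libraries and was at least 14.1-fold higher in RBFOX1 cells, FOS had a mean of 1.40 ± 1.53 and 24.0 ± 5.01 normalized counts, and SIK1 (log2 -1.26 ± 0.258, adjusted p = 0.00041) and PPARGC1A (log2 -0.95 ± 0.148, adjusted p = 2e-05) fell. In the nitric oxide-sensitive guanylyl cyclase, GUCY1B1 fell (log2 -0.64 ± 0.148, adjusted p = 0.00118) where its partner GUCY1A2 rose.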
